A study of Arabidopsis thaliana with 12 samples.

Results

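FATB and FABG encode enzymes of plastid fatty acid synthesis, whose transcript levels are described here in Arabidopsis thaliana, in the wild type (WT) and in the pete1 pete2 double mutant. The members were chosen by annotation alone, as the array features that the platform annotation gives to exactly 1 gene, either AT1G08510 (FATB) or AT1G24360 (FABG). Feature 1421 met this for FATB and feature 4426 for FABG, so that 2 of 3439 features are described. WT and mutant both had the Columbia 0 background and both came from MS medium, the usual salt mixture on which seedlings are raised. The mutant is labelled as having neither isoform of plastocyanin, encoded by PETE1 and PETE2, the lumenal copper protein that passes electrons from the cytochrome b6f complex to photosystem I. Total RNA was hybridised to 1-colour arrays, with 6 samples of each genotype. The tissue, the plant age, the kind of mutation and the pooling of plants are not given in the labels, and 0 features were assigned to PETE1 or PETE2, so the genotype labels have no check from their transcripts.

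Plants make nearly all their fatty acids in the plastid, where chains grow on acyl carrier protein (ACP) by repeated rounds of condensation, reduction, dehydration and a second reduction. FABG, the ketoacyl-ACP reductase, carries out the first reduction of each round with NADPH, which in green tissue comes largely from the photosynthetic electron transport that plastocyanin serves. FATB, an acyl-ACP thioesterase that prefers saturated chains, ends elongation by cutting palmitate from ACP, which then leaves the plastid and feeds membrane lipids and, in Arabidopsis, much of the surface wax. Thioesterases of the FATA class do the same mainly for oleate.

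The intensities are relative units on a linear scale, and a column of the table summed to between 3493 and 3778 of them. Columns 1 and 2, 3 and 4, and 5 and 6 of each genotype agreed far more closely than any others. Within such pairs the absolute log2 difference had a median over features of 0.0957 to 0.134, against at least 0.300 between other columns. Each pair was averaged on the log2 scale and counted as 1 replicate, which leaves n = 3 per genotype. Column medians differed between pairs, from 0.342 for mutant columns 5 and 6 to 0.659 for mutant columns 3 and 4, and the columns were therefore quantile normalised. Of 8 marker genes of green tissue, 5 had a feature of their own and none of these was listed at 0. After adjustment 0 of the 5 passed limma's test, beside 0.0291% of all tested features, so this count says nothing in particular of green tissue. Their summed normalised intensity was between 38.0 and 63.8 in the WT pairs and between 42.5 and 68.3 in the mutant pairs. In the deposited columns the sum was between 36.4 and 57.1 in WT and between 50.3 and 80.2 in the mutant. Most of it came from PSBW, a photosystem II subunit, with a log2 fold change of 0.46 (SE 0.38). That of PSBW was 0.74 in the deposited values, 1.02 after median centring and 0.76 after total scaling. Under median centring and total scaling its mutant pairs all lay above its WT pairs, but after quantile normalisation and in the deposited values they overlapped. The share of all features with such an order is known here only after quantile normalisation, where it was 5.56%. It is not given for median centring or total scaling. SBPASE, a Calvin cycle enzyme, had mutant pairs that all lay below its WT pairs after quantile normalisation but under no other scaling. After quantile normalisation 4.36% of all features had their mutant pairs below their WT pairs. The log2 fold change of SBPASE was -0.46 (SE 0.18, limma adjusted p = 0.693). The log2 fold changes of PSAN, LHB1B2 and PRK were 0.12, -0.23 and 0.07. That of LHB1B2 was 0.21 after median centring, and that of PRK was -0.14 in the deposited values and -0.12 after total scaling. The part of these markers in the results below was not tested. None of 9 root and 3 epidermis markers had a feature of its own. As RNA from whole samples was measured, fewer cells of a type and less RNA per cell cannot be told apart.

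FATB was brighter in all mutant pairs than in any WT pair, but the difference did not pass the test across all features. The deposited intensity of FATB in the 6 WT columns was 0.0895 at the lowest, 0.137 at the median and 0.201 at the highest. In the 6 mutant columns it was 0.1995 at the lowest, 0.251 at the median and 0.271 at the highest. The ranges touched at a single value on each side: mutant column 2 lay just under WT column 3, and the remaining 5 mutant columns lay above all 6 WT columns.

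After quantile normalisation the FATB pair means in WT were 0.0991 for columns 1 and 2, 0.177 for columns 3 and 4 and 0.0947 for columns 5 and 6. In the mutant they were 0.296, 0.185 and 0.386 for the same numbers. The mutant pairs thus all lay above the WT pairs, while 2 single mutant columns, numbers 3 and 4, fell below WT column 3. The lowest mutant pair exceeded the highest WT pair by 0.06 on the log2 scale. The columns within a FATB pair differed by 0.256 at the median, and by up to 0.517, on the same scale. In the deposited values the same pairs averaged 0.137, 0.173 and 0.108 in WT and 0.227, 0.260 and 0.253 in the mutant.

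WT had a mean normalised FATB intensity of 0.124 ± 0.0464 and the mutant one of 0.289 ± 0.101 (SD, n = 3). This is a log2 fold change of 1.22 (SE 0.39, 95% confidence interval 0.22 to 2.22), or 2.33-fold with an interval of 1.17 to 4.66. The difference had an unadjusted p of 0.0254 and an adjusted p of 0.583 in limma's moderated test, adjusted by Benjamini-Hochberg over the 3438 tested features. At the adjusted threshold of 0.05, only 0.0291% of the tested features passed in either direction. At an unadjusted p under 0.05, 7.3% did, 4.62% higher and 2.68% lower in the mutant. That balance turned with the scaling: 63.3% of these features were higher here, against 32.9% in the deposited values and 33.3% after total scaling. FATB ranked as number 150 of all features and number 23 of the 691 named genes by p. Mutant pairs lay above all WT pairs in 5.56% of features, and the groups did not overlap, in either direction, in 9.92%. An exact two-sided permutation test of the 3 against 3 pair means gave p = 0.1, the smallest value this design allows.

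FABG showed no difference between the genotypes that exceeded its spread. Its deposited intensity was 0.216 at the lowest, 0.304 at the median and 0.374 at the highest in the 6 WT columns. In the mutant the lowest, median and highest were 0.141, 0.171 and 0.423. Mutant columns 3 and 4 stood above the other 4 mutant columns, and they are also the mutant columns with the highest column medians.

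Normalised, the FABG pair means in WT were 0.286, 0.312 and 0.228 for columns 1 and 2, 3 and 4, and 5 and 6. In the mutant they were 0.215, 0.269 and 0.271. The groups overlapped, and the gap between mutant columns 3 and 4 and the other mutant columns was no longer present after the normalisation. WT averaged 0.276 ± 0.0431 and the mutant 0.252 ± 0.0318 (SD, n = 3). The log2 fold change was -0.13 (SE 0.17), and its 95% confidence interval of -0.56 to 0.31 corresponds to a fold between 0.676 and 1.24. Limma's adjusted p was 1.0 and the unadjusted p 0.496. The exact permutation test on pair means gave p = 0.5.

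**Figure D1:**
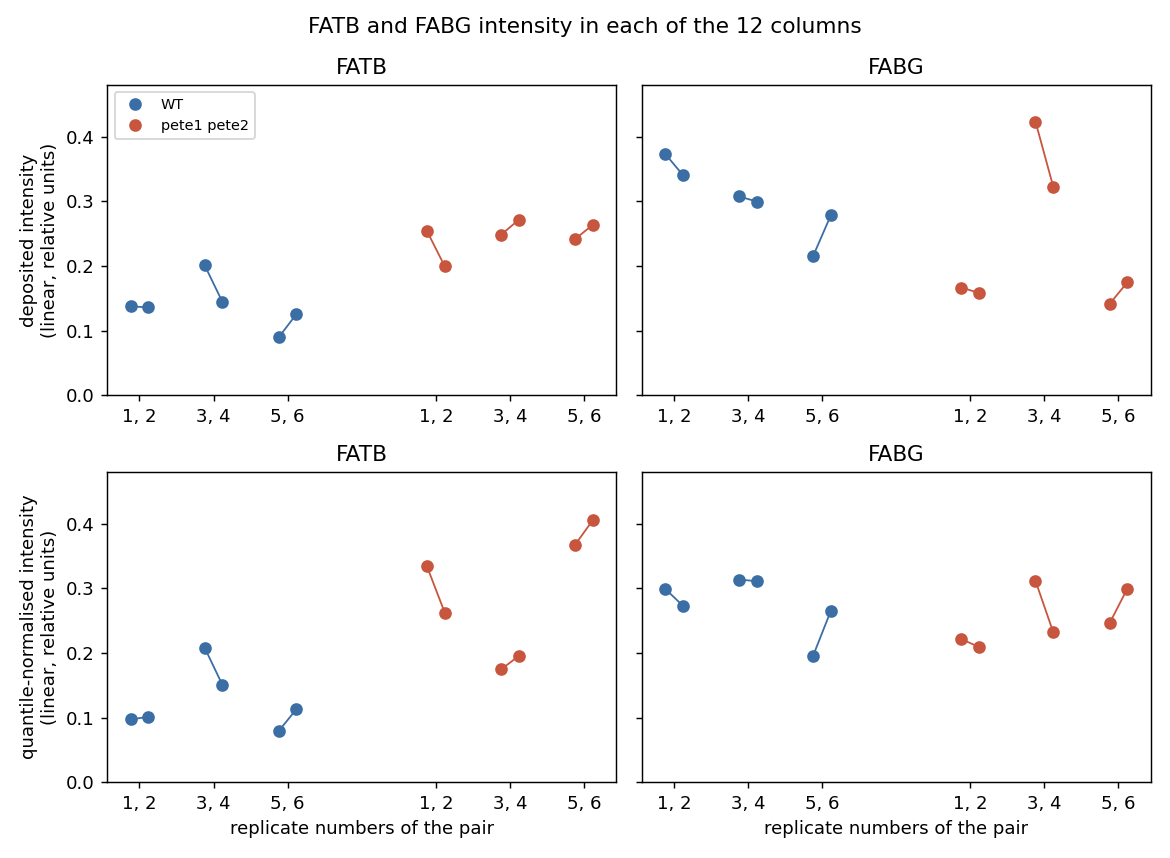
Intensity of FATB (left) and FABG (right) in each of the 12 columns, as deposited (upper panels) and after quantile normalisation (lower panels), on linear axes in relative units; each point is a column, and lines join the columns of a pair. The deposited FATB values of the mutant lie between 0.1995 and 0.271 against 0.0895 to 0.201 in WT, while the FABG values of the genotypes overlap.

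Both features were dim. Between 9.39% and 40.8% of the features of a column were dimmer than FATB, and between 18.8% and 31.03% were dimmer than FABG. Neither was listed at 0 in any column, and the lowest deposited values were 3.97 times the floor of 0.0225 for FATB and 6.27 times for FABG. The replicate spread of the features differed: the residual SD of FATB was 0.522 on the log2 scale, above that of 71.3% of features, and that of FABG was 0.213, above that of 17.8%. The median over all features was 0.374. No background values were part of the table, so the signal of either feature could not be set against its local background.

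The change of FATB was compared directly with that of FABG through their log2 ratio within each pair mean, in which a factor common to a whole column cancels. The ratio of FATB to FABG was -1.53, -0.82 and -1.27 on the log2 scale in the WT pairs. It was 0.46, -0.54 and 0.51 in the mutant pairs, all above the WT pairs. It averaged -1.21 ± 0.36 in WT and 0.14 ± 0.59 over the mutant pairs (SD, n = 3), so the change of FATB exceeded that of FABG by 1.35. The exact two-sided permutation test gave p = 0.1, again the smallest possible with 3 against 3. The level of the ratio itself has no meaning across features, and only its difference between genotypes is compared.

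The differences depended on the scaling between arrays in size but not in direction. Over all features the log2 fold change had a median of -0.01 after quantile normalisation and of -0.27 in the deposited values. FATB had a log2 fold change of 0.86 in the deposited values, which is 1.13 above the median of all features there, against 1.23 above it after quantile normalisation. For FABG the deposited values gave -0.50 (95% confidence interval -1.52 to 0.53), which is -0.23 relative to that median, against -0.11 after quantile normalisation. Under every scaling FATB had an unadjusted p under 0.05 in limma, but an adjusted p of 0.404 or higher. FABG did not reach an unadjusted p of 0.05 in limma under any scaling.

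**Figure D2:**
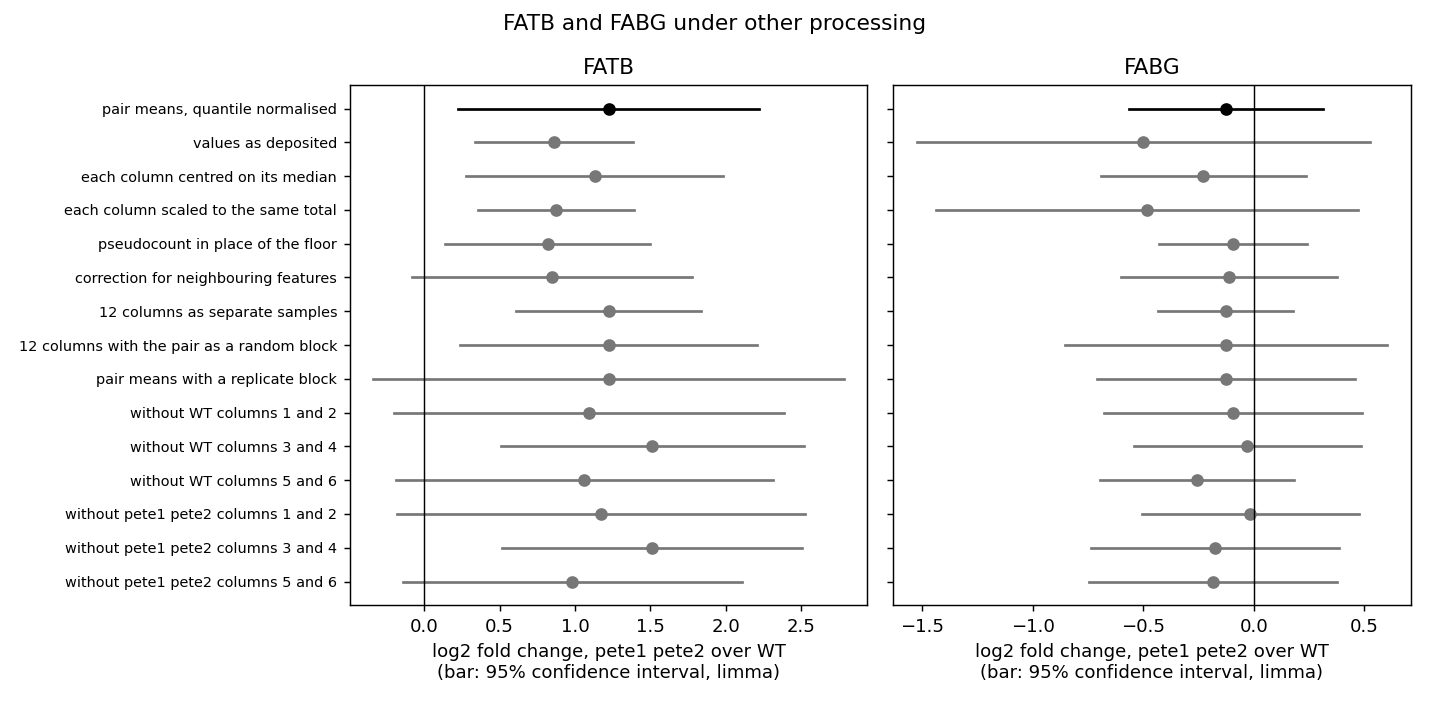
Log2 fold changes of FATB (left) and FABG (right), mutant over WT, under 15 ways of processing, with limma's 95% confidence intervals. FATB is positive throughout, from 0.82 to 1.51, with 6 intervals that cross 0; every interval of FABG crosses 0.

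Neighbouring features of the array, by number, deviated together between arrays, with a mean correlation across features of 0.248 at a distance of 1. At a distance of 288, taken as the length of an array row, it was 0.198. That distance was picked from these same data, as the one with the highest correlation among many longer distances tried. It was not checked against an array layout. Across features these correlations are not over independent replicates. FATB had 2 such neighbours in the table. Feature 1133, a row away by this estimate and not listed in the annotation, had normalised pair means of 1.102, 1.92 and 2.14 in WT. In the mutant they were 3.40, 4.81 and 3.30. Its log2 fold change was 1.19 (SE 0.32, limma adjusted p = 0.539), close in size to that of FATB, and its mutant pairs also lay above its WT pairs. The order within the mutant differed, since columns 3 and 4 were the highest mutant pair for feature 1133 and the lowest for FATB. Feature 1420, next to FATB, had a log2 fold change of 0.37 (SE 0.28). With each value corrected for its neighbours' deviation, the log2 fold change of FATB was 0.85 (95% confidence interval -0.083 to 1.77, limma adjusted p = 0.910, unadjusted p = 0.0681). For FABG, whose single neighbour in the table had a log2 fold change of -0.01, the corrected value was -0.11. Whether position on the array has a part in the FATB difference was not tested beyond this correction.

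**Figure D3:**
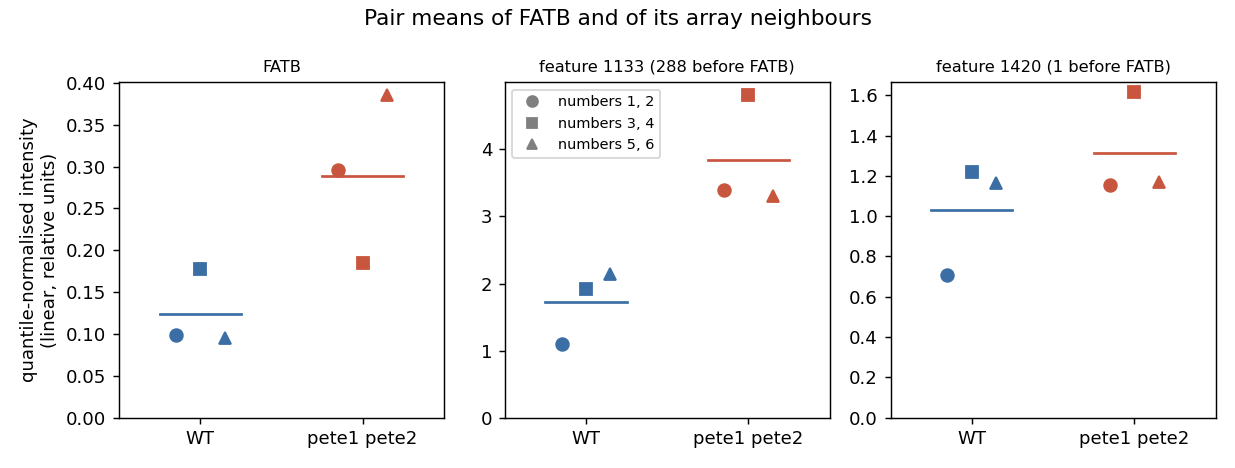
Normalised intensity of FATB and of its neighbours 288 and 1 positions before it, on linear axes from 0; points are pair means, their shapes give the replicate numbers, and bars are means of 3 pairs. In FATB and in feature 1133 the 3 mutant pairs lie above the 3 WT pairs, but columns 3 and 4 are the lowest mutant pair in FATB and the highest in feature 1133.

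The rest of the pathway was sparsely represented. Of 66 genes in 10 lists of fatty acid and lipid synthesis, 3 had a feature of their own, 9 were found only on features shared by several genes, and 54 had none assigned. The lists for pyruvate dehydrogenase, acetyl-CoA carboxylase and acyl carrier proteins, which supply the substrates, had no feature, nor had the 13 genes of surface wax and very-long-chain chains. Of the 11 features assigned, 0 passed limma's test in either direction after adjustment, beside 0.0291% of all tested features. At an unadjusted p under 0.05 there was 1, FATB, where 7.3% of all features reached that level. Their median log2 fold change was 0.11, with 7 positive, 3 negative and 1 at zero, beside a median of -0.01 and 45.4% positive over all tested features. Of the 8 that lay above the floor in all 12 columns, a choice made after the data were seen, 5 were positive and 3 negative, and the median was 0.15.

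Of the elongation round itself, the dehydratase could be followed besides the reductase, on features that do not separate near copies. The 2 genes of hydroxyacyl-ACP dehydratase, the step after FABG, share both feature 981 and feature 3526. Feature 981 averaged 0.129 ± 0.0285 in WT and 0.172 ± 0.0289 over the mutant pairs (SD, n = 3), and its log2 fold change was 0.43 (SE 0.23, limma adjusted p = 0.908). Feature 3526, given to the same 2 genes, had one of -0.20 (SE 0.46, adjusted p = 1.0 in limma). These features disagreed in sign, and both intervals included 0.

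Thioesterases other than the FATB feature were measured together. Feature 1541 is assigned to 3 acyl-ACP thioesterase genes at once, FATB among them, and feature 3455 to the 2 FATA genes. The normalised pair means of feature 1541 were 0.458, 0.2099 and 0.593 in WT and 0.534, 0.362 and 0.743 in the mutant for columns 1 and 2, 3 and 4, and 5 and 6. The groups overlapped, and the log2 fold change was 0.44 (SE 0.49, 95% confidence interval -0.82 to 1.70, limma adjusted p = 0.996). The interval contains the value of the FATB feature as well as 0. Feature 3455 had a log2 fold change of 0.19 (SE 0.27). Feature 1019, shared by FAX1, an exporter of fatty acids from the plastid, and a related gene, was at the floor in 2 of 3 WT pairs and 1 of 3 mutant pairs. Its log2 fold change of 0.75 (SE 0.69) rests on those raised values.

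Genes listed as stearoyl-ACP desaturases, a class named for making oleate from stearate before the thioesterases act, gave mixed values. The substrate of each listed enzyme was not examined. AT5G16230 was listed at 0 in all 12 columns. Feature 1293, shared by 3 desaturase genes, had pair means from 0.336 to 0.374 in WT and from 0.256 to 0.329 in the mutant. After quantile normalisation the groups did not overlap, which held in this direction for 4.36% of all features. In the deposited values they overlapped, since mutant columns 3 and 4, at 0.438 and 0.460, lay above WT columns 3 to 6. The normalised log2 fold change of feature 1293 was -0.23 (SE 0.13, limma adjusted p = 0.934). Feature 686, shared by 2 of the same genes, had a log2 fold change of 0.11 (SE 0.27). Feature 4461, shared by 2 other desaturase genes, varied with the replicate number and not with the genotype. Its deposited intensity was between 4.32 and 5.41 in columns 1 to 4 of both genotypes and between 0 and 0.042 in columns 5 and 6 of both.

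**Figure D4:**
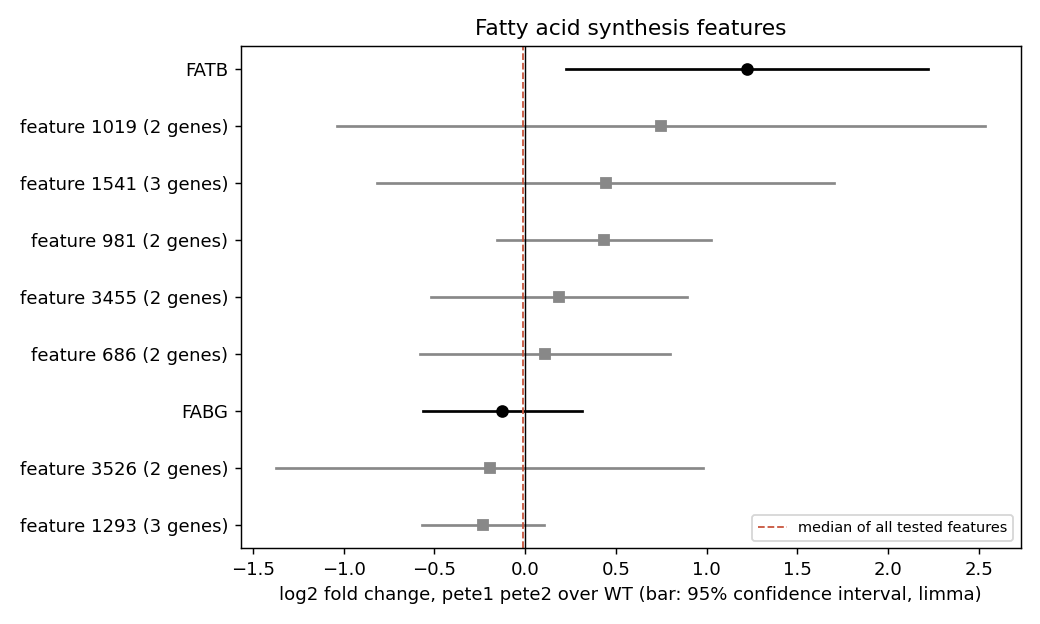
Log2 fold changes, mutant over WT, of 9 of the 11 fatty acid synthesis features, with limma's 95% confidence intervals; circles are features of 1 gene, squares are shared features, and the dashed line is the median of all tested features. The FATB interval, 0.22 to 2.22, is the only one here that leaves out 0; AT5G16230, listed at 0, and feature 4461, with an SE of 3.001, are not drawn, and feature 1019 includes pairs at the floor.

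The named genes whose pattern over the 6 pair means was most like that of FATB were sought among 661 candidates. UBA1A, an RNA-binding protein, came first with Pearson's r of 0.982, followed by AT2G23070, listed as a protein kinase CK2 alpha subunit, with 0.961, and AT4G27390 with 0.9595. UBA1A averaged 0.288 ± 0.0254 over the WT pairs and 0.388 ± 0.0433 over the mutant pairs (SD, n = 3). Its log2 fold change of 0.43 was smaller than that of FATB, as were those of AT2G23070 (0.52) and AT4G27390 (0.61), and none passed limma's test. For FABG the nearest were AT5G22340 with r of 0.885, AT5G11010 with 0.846 and AT2G04360 with 0.842, and their log2 fold changes lay between -0.16 and -0.05. Since the highest of many correlations over 6 values were picked, these r values describe likeness only.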

How the data were processed

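Linear intensity values were taken as the authors deposited them, in a table of 3439 features and 12 columns. The scanner, the background correction and the quantity that the values were divided by are not given in the sources used here. Samples were grouped by their titles, per the labels, as 6 WT and 6 pete1 pete2 samples. Nothing states which came from separate plants, so the p-values cover the spread among these columns alone, and that spread may be technical.

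Columns were quantile normalised, a floor was set at percentile 1 of all positive values (0.0225), log2 was taken, and columns 1 and 2, 3 and 4, and 5 and 6 of a genotype were averaged. The gene with 2 features was averaged, leaving 3438 tested. Genotypes were compared with limma 3.58.1 in R 4.3.3 (lmFit, eBayes, two-sided, Benjamini-Hochberg over all features, threshold 0.05). The code was tested on simulated data. The alternatives were other scalings, a pseudocount of 0.0872, removal of dim features, another variance model, other replicate units and blocks, omitted columns or pairs, and a correction for neighbouring features. Single comparisons used exact permutation tests, with a smallest p of 0.1 for 3 against 3 pair means. With a replicate block on pair means the signs of the 3 same-number differences were flipped instead, with a smallest p of 0.25.

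A feature took its gene name from the platform annotation if that listed 1 gene, and gene identifiers were matched to the TAIR10.1 gene table for names only (690 of 692). Coordinates are left out because the array's genome build is unstated. The named genes were the members, every list gene with a feature of its own, and the 3 named genes nearest in pattern to each member. Features that are shared or adjacent on the array were included later, with the data in view. The members, lists and pairing of columns were chosen with earlier results of these data known.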

Additional observations from a re-analysis of the deposited data

Results flagged for a closer look

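WT column 5 had a normalised FABG intensity of 0.196, and its partner, WT column 6, had 0.266. Dixon's 95% limit for 6 values was applied on the log2 scale only. On the linear scale the gap below the other 5 WT columns is a smaller part of the range. On the log2 scale WT column 5 lay apart from them by more than that limit. Chance alone gives such a gap in about 1 in 20 groups, and the columns of a pair are not independent. Without WT column 5 the log2 fold change of FABG was -0.20 in place of -0.13.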

How the results depend on the processing

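The direction of FATB, of FABG and of their difference was the same in every alternative that gave a value. FATB ranged from 0.82 to 1.51 on the log2 scale and passed limma's test in 1 of 28 alternatives, with the 12 columns as separate samples (1.22, adjusted p = 0.0254), where the closely agreeing columns of a pair count as independent and p can be too small. Over the other alternatives its limma adjusted p was 0.122 or higher. Leaving out 1 column or pair gave 0.98 to 1.51 for FATB, -0.26 to -0.02 for FABG and 1.16 to 1.69 for the difference. With 12 separate columns the difference was 1.35 (exact permutation p = 0.00433). The count of differing features, 1 here, was 0 in the deposited values, 0 after median centring and 0 after total scaling, 224 with 12 separate columns, 19 with the pair as a random block and 3 with the neighbour correction. Omitting a column or pair gave 0 to 2: 0 without WT columns 5 and 6 or any mutant pair, and 2 without WT column 4, WT column 6 or WT columns 3 and 4. Same-numbered pairs of the genotypes correlated in their deviations by 0.324, 0.000557 and 0.389. Over all pairings of a WT with a mutant pair these correlations ran from -0.398 to 0.389. The labels do not say what the numbers are, and the main fit did not take them as pairing. Whether they pair the genotypes was not settled. With a replicate block on pair means the count was 0 and FATB had an adjusted p of 0.739 in limma. The exact sign-flip test on the 3 same-number differences gave p = 0.25 for the difference, the smallest value that test allows. Its p can therefore not be set against the 0.1 of the unblocked test as weaker evidence. With a replicate block on 12 columns the count was 249 and the limma adjusted p of FATB 0.122. The cause of these shifts was not tested. FATB is among the dimmest 25% of features, so their removal gave no value for it. The difference was not refitted with the trended variance or the random block, which leave it as it was. The signal of neither gene could be set against its background.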

Other observations

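Feature 4461, singled out after its values were seen, was, among all 3439, the single feature with a deposited intensity under 0.05 in columns 5 and 6 of both genotypes and above 1 in the other 8 columns. With columns 1 and 2, or 3 and 4, as the low ones, 0 features had this pattern, and 0 features were low in 1 genotype alone. Of the 6 pair means, 4 correlated best, across features, with the pair of the same numbers in the other genotype. Each had only 3 pairs to match, so some matches arise by chance, and the matches share correlations and are not independent. The count does not settle whether the numbers pair the genotypes.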
